A study of Homo sapiens and Mus musculus with 25 samples.

Results

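The replication-dependent histone genes supply the bulk of the core histones H2A, H2B, H3 and H4 and of the linker histone H1 while DNA is copied. They were taken as the GENCODE release 44 protein-coding genes on chromosomes 1 and 6 of GRCh38 (hg38) whose symbols are H1-1 to H1-6 or begin with H2AC, H2BC, H3C or H4C and end in digits. This gave 68 of the 19970 protein-coding genes on chromosomes 1 to 22 and X. There were 6 H1, 17 H2A, 18 H2B, 13 H3 and 14 H4 genes. Most sat in the large cluster on the short arm of chromosome 6, which held 55 of them. Another 11 sat in a cluster near 149 Mb of chromosome 1, and the pair H2AC25 and H2BC26 sat near 228 Mb of the same chromosome.

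These genes are transcribed in S phase, mostly lack introns and make messages that end in a conserved stem-loop rather than a poly(A) tail. The stem-loop is bound by SLBP, and the clusters assemble a nuclear compartment, the histone locus body, around the co-activator NPAT. Trimethylated lysine 4 of histone H3 (H3K4me3) is the usual mark of active promoters, monomethylation (H3K4me1) is typical of enhancers and of the flanks of promoters, and dimethylation (H3K4me2) is found at both.

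The chromatin came from K562, an established human leukaemia cell line with erythroid features. It was profiled by ICeChIP-seq, in which barcoded nucleosomes of known modification are added before the immunoprecipitation so that the pull-down can be calibrated. Peak lists of 17 antibodies were compared, 8 raised against H3K4me3, 4 against H3K4me2 and 5 against H3K4me1, and the labels name no treatment of the cells in any group. The H3K4me3 antibodies were Abcam ab8580, Abcam ab12209, Diagenode C15410003, Thermo Fisher PA5-40086, EpiGentek A-4033-050, EMD Millipore 07-473, Abclonal A2357 and EMD Millipore 05-745R. The H3K4me2 antibodies were Abcam ab7766, Cell Signaling Technologies 9725, EMD Millipore 05-1338 and Thermo Fisher 710796. The H3K4me1 antibodies were Abcam ab8895, then Active Motif 39635, then Cell Signaling Technologies 5326 BF, then EpiGentek A-4031-050 and last Thermo Fisher 710795. Values of the H3K4me2 and H3K4me1 lists are given in these orders below. Of the libraries, 15 shared the AR16 input, and Diagenode C15410003 and EpiGentek A-4033-050 were run with the AR17 input. Abcam ab12209, Abclonal A2357, Thermo Fisher PA5-40086 and EMD Millipore 05-1338 were amplified for 12 cycles and the other 13 libraries for 8 cycles. A single list each for H3K27me3 (Cell Signaling Technology 9733) and H3K9me3 (Koide Lab 309M3B), and 3 lists that the authors corrected for off-target capture, stood beside them.

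The lists differed greatly in extent. Among the H3K4me3 lists, Abcam ab8580 held 721215 peaks over 769 Mb and EMD Millipore 07-473 held 233923 peaks over 165 Mb, against 13311 to 33922 peaks over 18.7 to 42.9 Mb in the other 6. These widespread lists stood apart at the histone genes too, and the main H3K4me3 results are also given without them, a setting chosen after seeing the data. The label K562 was checked against erythroid genes: 8 of 10 had a peak in all 8 H3K4me3 lists, against 39.4% of all genes. The lists carry no read depth, and a window without a peak does not show unmodified chromatin.

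The histone genes share sequence features that no peak list was used to find. Promoters were read from RefSeq (GRCh38.p14), from 250 bases before to 50 bases after the start, and 63 of the 68 genes had one. In the sequences shown here, capitals mark motifs found on either strand: the TATA box TATAAA, bound by the TATA-binding protein; CCAAT, the site of NF-Y; the octamer ATTTGCAT, the site of POU2F1 in H2B promoters; and AAACACA, known as the H1 box. The first 2 are the stretches between the starts of a divergent H2A and H2B gene, written along the plus strand. The stretch between H2AC17 and H2BC17 (chr6:27893186-27893424) belongs to a pair with a peak in all 8 H3K4me3 lists. The stretch between H2AC14 and H2BC14 (chr6:27814778-27815021) belongs to a pair with 6 and 2 lists.
H2AC17 and H2BC17: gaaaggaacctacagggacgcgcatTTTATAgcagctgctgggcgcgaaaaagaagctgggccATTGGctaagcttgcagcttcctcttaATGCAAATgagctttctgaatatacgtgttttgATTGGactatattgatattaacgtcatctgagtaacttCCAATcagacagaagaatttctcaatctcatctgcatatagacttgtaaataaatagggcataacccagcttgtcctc
H2AC14 and H2BC14: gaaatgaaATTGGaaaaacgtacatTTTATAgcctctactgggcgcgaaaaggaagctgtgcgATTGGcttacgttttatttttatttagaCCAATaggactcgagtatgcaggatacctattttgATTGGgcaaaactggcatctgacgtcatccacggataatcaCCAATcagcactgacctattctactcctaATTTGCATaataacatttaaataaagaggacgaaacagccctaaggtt
The same contrast was available within the linker histones. H1-4 had a peak in all 8 H3K4me3 lists and H1-1 in 1, and the 200 bases before their starts (chr6:26156129-26156328, plus strand, and chr6:26017788-26017987, minus strand) read as follows.
H1-4: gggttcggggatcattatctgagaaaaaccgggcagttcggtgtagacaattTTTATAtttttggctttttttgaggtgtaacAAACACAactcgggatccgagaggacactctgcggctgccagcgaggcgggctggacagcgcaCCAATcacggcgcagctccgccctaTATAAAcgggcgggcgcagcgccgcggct
H1-1: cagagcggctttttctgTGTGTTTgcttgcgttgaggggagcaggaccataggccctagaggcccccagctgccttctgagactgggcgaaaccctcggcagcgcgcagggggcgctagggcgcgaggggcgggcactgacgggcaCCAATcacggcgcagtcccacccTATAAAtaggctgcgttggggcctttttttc
For H4, the 150 bases before the starts of H4C2 with 8 lists (chr6:26027284-26027433, minus strand) and H4C7 with 1 (chr6:26246997-26247146, minus strand) are shown.
H4C2: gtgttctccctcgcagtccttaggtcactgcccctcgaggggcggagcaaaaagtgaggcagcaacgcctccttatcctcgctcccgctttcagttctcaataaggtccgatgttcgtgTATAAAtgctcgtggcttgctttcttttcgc
H4C7: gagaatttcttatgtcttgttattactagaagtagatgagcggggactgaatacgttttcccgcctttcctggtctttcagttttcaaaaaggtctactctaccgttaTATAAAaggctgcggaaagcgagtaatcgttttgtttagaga

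In each of these pairs, the gene with few H3K4me3 lists carried motif letters of the same kinds as the gene with 8. TATAAA stood in 65.1% of the 63 histone promoters, against 9.64% of the 15315 protein-coding promoters in the same table. In the divergent H2A and H2B pairs, the 250 bases before a start took in all or nearly all of the stretch between both starts. A motif in such a shared stretch was counted for both genes, so these promoters are not separate observations. At H2BC4, H2BC14, H2BC17 and H2AC8, TATAAA was found only near the partner's start. CCAAT stood in 85.7%, against 36.6% of all promoters. All H1, H2A, H2B and H3 promoters held CCAAT, whereas 25% of the H4 promoters did. The octamer stood in 39.7%, against 1.7% of all promoters, in 14 of 18 H2B and 11 of 16 H2A promoters and in 0 of the H1, H3 and H4 promoters. Most of these H2A octamers lay in a stretch shared with an H2B gene and were counted there too. The H1 box stood in 14.3%, against 4.26% of all promoters, and in all 6 H1 promoters when both strands were searched. At H1-1 the only match was on the opposite strand, as TGTGTTT at position -183 from the start. At H1-4 it read AAACACA at position -117. The same shares were taken over the 45 promoters of genes with a peak in all 8 H3K4me3 lists and the 18 promoters of the rest, with no test. TATAAA stood in 68.9% of the 45 promoters and 55.6% of the 18. CCAAT stood in 84.4% of the 45 and 88.9% of the 18, and the octamer in 40% of the 45 and 38.9% of the 18.

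The 3′ stem-loop was searched as the arms GGCTCT and AGAGCC, or GGCCCT and AGGGCC, around the loop TTTN, within 150 bases after an annotated stop codon and on the coding strand. It was found at 63 of the 68 genes (92.6%) and at 4 of the 19902 other protein-coding genes. It began 22 to 67 bases after the stop codon, with a median of 35. Examples from the minus strand of GRCh38, with the 16 bases of the stem-loop in capitals, are H2AC17 (chr6:27892704-27892719), H4C7 (chr6:26246616-26246631) and H1-1 (chr6:26017037-26017052).
H2AC17: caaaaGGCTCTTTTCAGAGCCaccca
H4C7: ttaatGGCCCTTTTCAGGGCCgcgta
H1-1: ccaacGGCTCTTTTAAGAGCCaccta
H4C7 and H1-1, each with a peak in 1 of 8 H3K4me3 lists, thus kept the stem-loop. The 5 genes without a match were H2AC11, H2AC15, H2BC10, H3C6 and H4C13. The other 4 genes with a match outside the set were H2AX, H4C16, H3-4 and H3-7, which are also histone genes.

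Each gene with 1 kb on either side was then taken as a window, and the percentage of the window under peaks was measured in every list. The histone gene windows mostly had H3K4me3 peaks, at a higher share than the windows of protein-coding genes as a whole. In the H3K4me3 lists, 79.0% ± 7.93 of the histone windows had a peak, against 66.2% ± 16.4 of all windows (SD, n = 8 lists). Without both widespread lists the share was 75% ± 2.46 of histone windows, against 58.6% ± 10.1 of all windows (SD, n = 6). In the H3K4me2 lists the share was 88.6% ± 7.24 of histone windows, against 88.6% ± 4.52 of all windows (SD, n = 4). In the H3K4me1 lists it was 90.6% ± 2.23 of histone windows, against 88.0% ± 7.98 of all windows (SD, n = 5). List by list, the histone share minus the share of all windows lay between 1.03 and 32.8 points in the 8 H3K4me3 lists, and was above 0 in all of them. It lay between -4.37 and 1.92 points in the 4 H3K4me2 lists and between -3.41 and 17.1 points in the 5 H3K4me1 lists, with both signs in each. The histone genes are short, with a median of 502.5 bases against 27476 bases for all genes, so the same count was made in 1 kb either side of the transcription start. In that start window 76.5% ± 8.61 of the histone genes had an H3K4me3 peak, against 54.9% ± 13.8 of all genes (SD, n = 8). Without both widespread lists these shares were 72.1% ± 1.61 of histone genes, against 49.1% ± 10 of all genes (SD, n = 6).

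**Figure D1:**
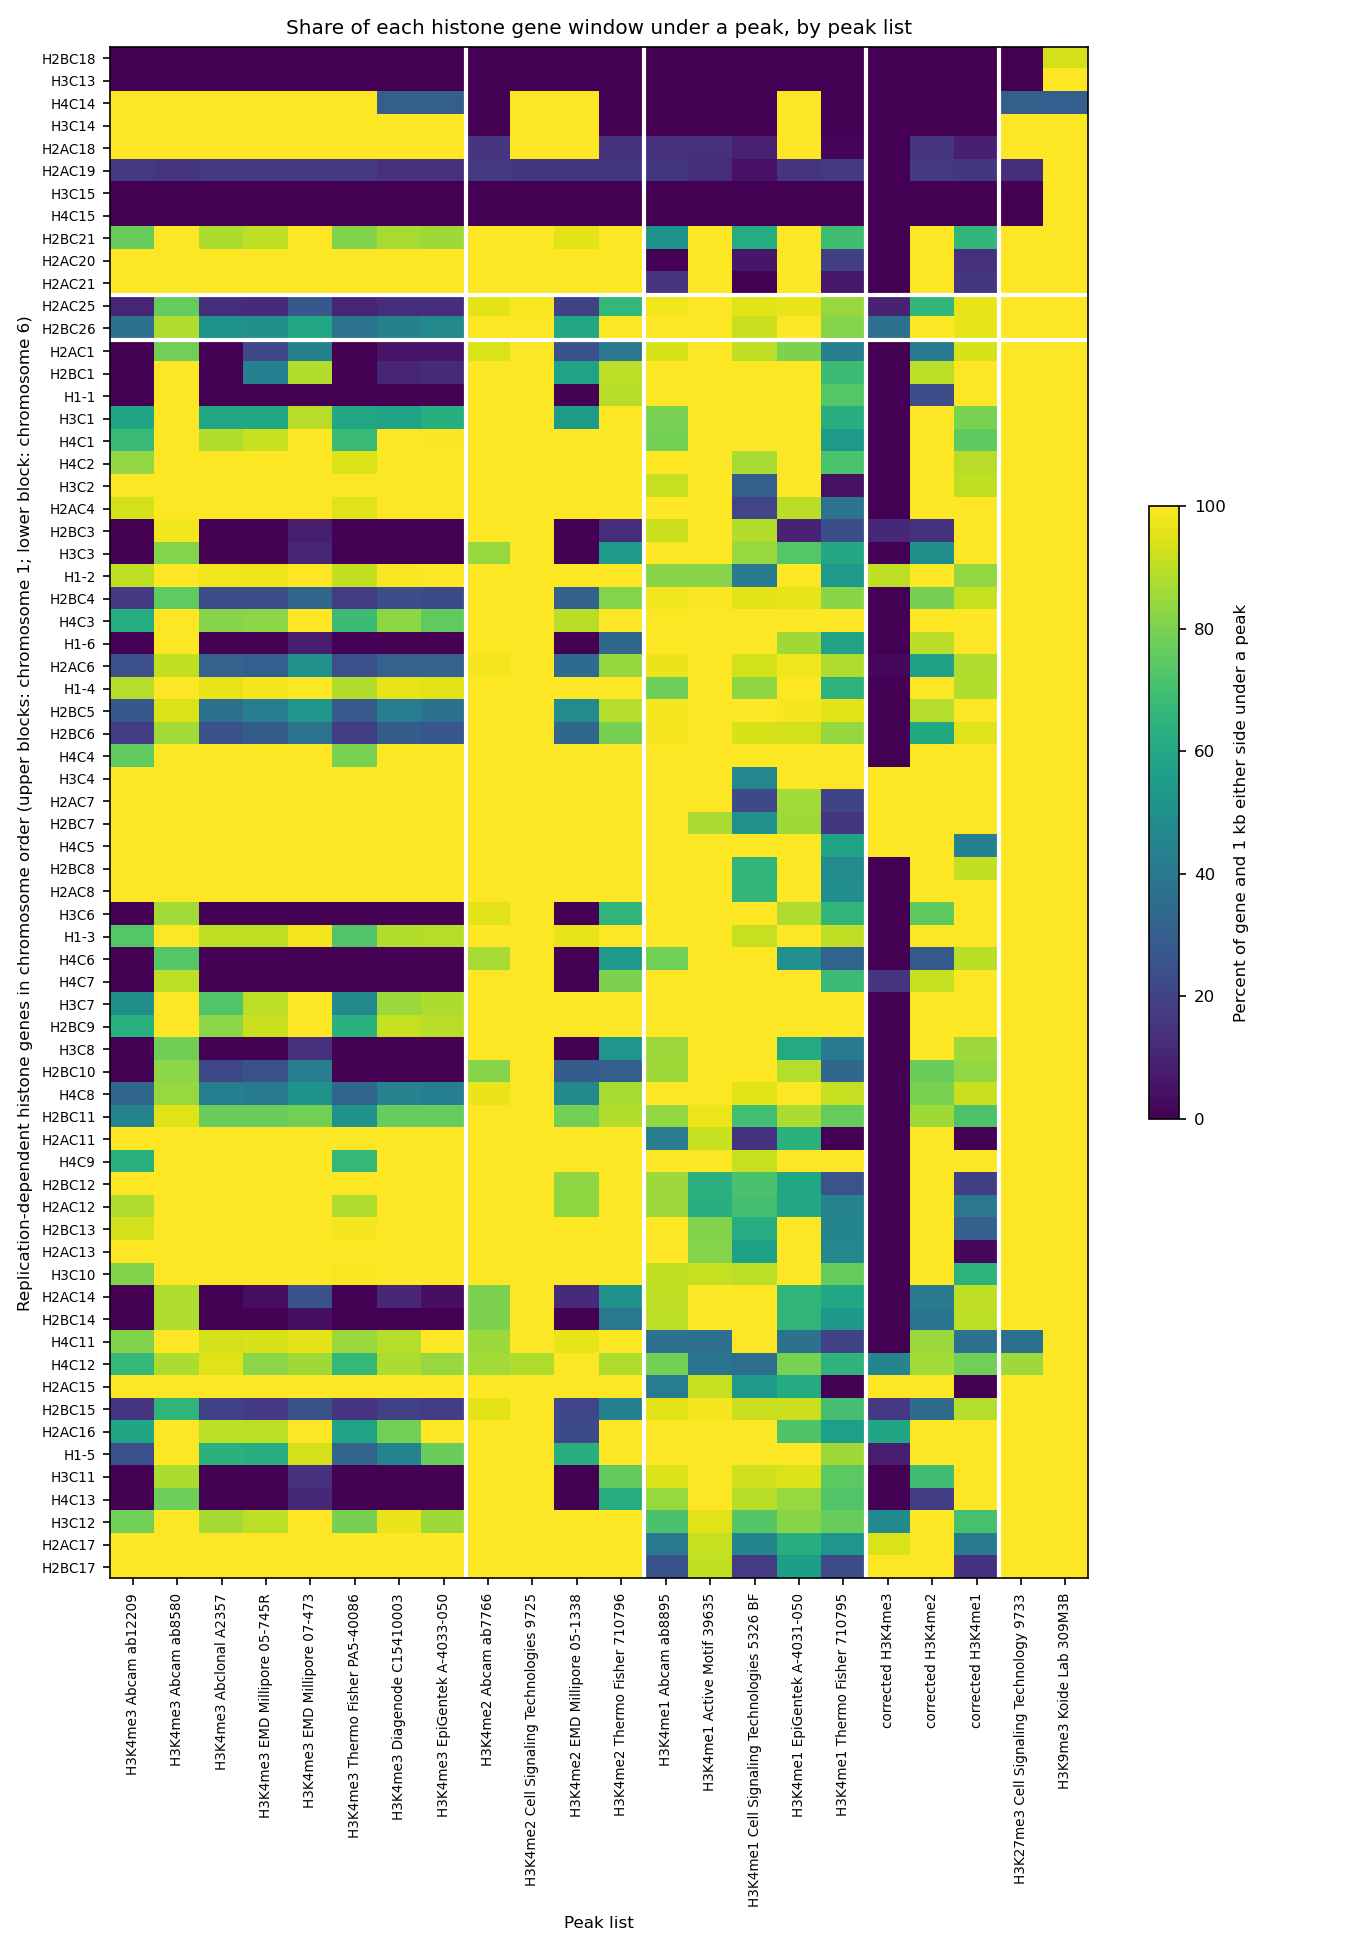
Percentage of each histone gene window (gene with 1 kb either side) under peaks, shown as colour from 0 to 100, with the 68 genes in rows by genomic position and the peak lists in columns grouped by target. Most rows are covered in the H3K4me3, H3K4me2 and H3K4me1 lists, 11 rows are covered in 1 or both of the widespread H3K4me3 lists but not in the other 6, and 4 rows are empty in all 17 lists.

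Coverage of the start window set H3K4me3 apart more clearly. The median histone gene had 95.5% ± 8.37 of its start window under H3K4me3 peaks, against 40.9% ± 35.7 for the median gene (SD, n = 8). Without both widespread lists the medians were 94% ± 9.34 for histone genes, against 25.5% ± 24.3 for all genes (SD, n = 6). Under H3K4me2 peaks these medians were 100% ± 0 for histone genes, against 86.4% ± 17.6 for all genes (SD, n = 4). Under H3K4me1 peaks they were 80.1% ± 26.5 for histone genes, against 72.9% ± 18.6 for all genes (SD, n = 5). Position by position, 68.6% ± 7.74 of histone starts lay under an H3K4me3 peak, against 49.3% ± 12.5 of all starts (SD, n = 8). At 3 kb upstream the shares were 46.7% ± 18.1 for histone genes, against 10.1% ± 15.6 for all genes. In the clusters this position can lie near or past the start of another histone gene. The part of neighbouring histone genes in the upstream shares was not tested. The H3K4me1 lists dipped at the start in both sets, to 58.2% ± 18.4 of histone genes, against 45.5% ± 11.1 of all genes (SD, n = 5). At 3 kb upstream they covered 89.4% ± 5.03 of histone genes, against 65.2% ± 5.47 of all genes. Without both widespread lists, 65.2% ± 1.78 of histone starts lay under an H3K4me3 peak, against 44.5% ± 10.3 of all starts (SD, n = 6), and at 3 kb upstream 38% ± 5.69 of histone genes did, against 3.14% ± 1.13 of all genes.

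**Figure D2:**
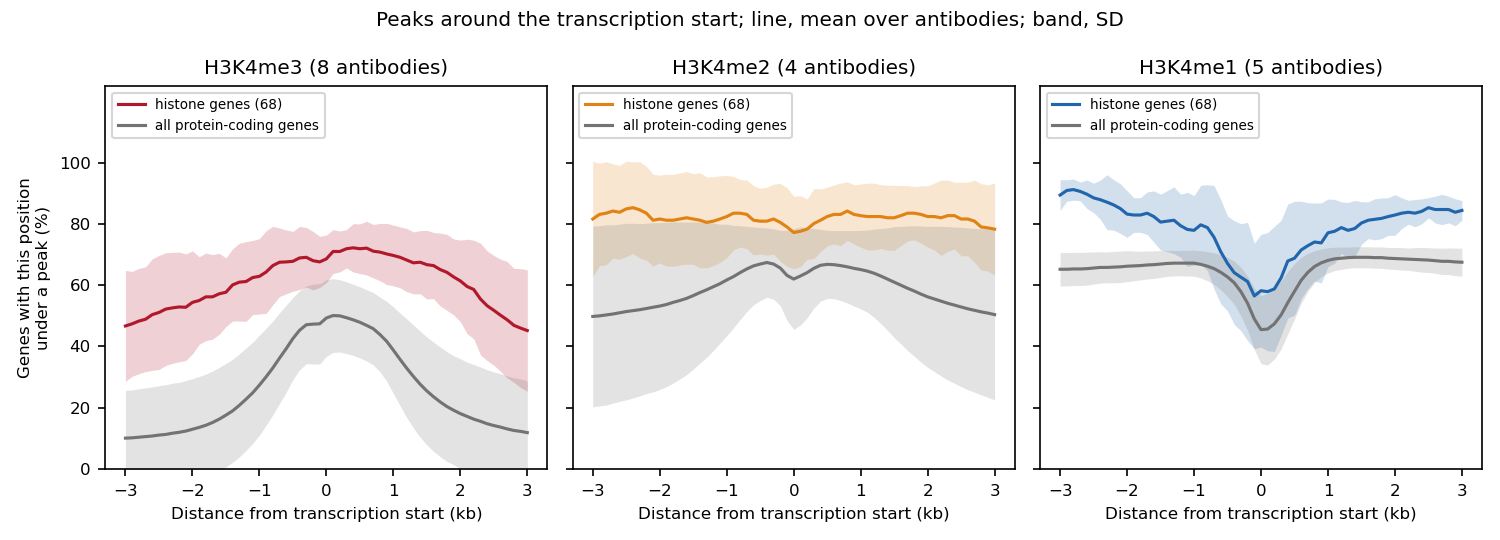
Percentage of genes whose position lies under a peak, from 3 kb upstream to 3 kb downstream of the transcription start, for the 68 histone genes (colour) and all protein-coding genes (grey), as the mean over antibodies with a band of 1 SD. The histone line stands above the grey one in all 3 panels, and the H3K4me1 lines dip at the start.

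The histone genes fell into a large group with H3K4me3 peaks in every list and a small group with peaks in very few. A peak in all 8 H3K4me3 lists was found at 49 of 68 genes (72.1%), against a background of 39.4% of all genes. Peaks in at most 2 of the 8 lists were found at 15 genes (22.1%), against 27.3% of all genes. Only 4 genes lay between: H2BC10 with 4 lists, H2AC1 and H2BC1 with 5 and H2AC14 with 6. By family, 15 of 17 H2A, 13 of 18 H2B, 10 of 14 H4, 4 of 6 H1 and 7 of 13 H3 genes had all 8 lists. All 4 H3K4me2 lists had a peak at 51 genes (75%), near the 77.7% of all genes, and all 5 H3K4me1 lists at 58 (85.3%), against 72.3% of all genes. A peak in all 17 lists was found at 43 genes (63.2%), against 36.1% of all genes.

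The 11 genes with a peak in 1 or 2 H3K4me3 lists were H1-1, H1-6, H2BC3, H2BC14, H3C3, H3C6, H3C8, H3C11, H4C6, H4C7 and H4C13. All 11 had a peak in Abcam ab8580 and 7 had one in EMD Millipore 07-473, the widespread lists. The other 6 H3K4me3 lists had a peak at 0 of the 11. Among the H3K4me2 lists, EMD Millipore 05-1338 also had a peak at 0 of the 11, while the other 3 H3K4me2 lists and all 5 H3K4me1 lists had a peak at all 11. Of all genes with at most 2 H3K4me3 lists, 2726 of 5459 had all 5 H3K4me1 lists.

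A peak was often shared by several histone genes, so the genes are not separate observations. In the Abcam ab12209 list, 33 distinct peaks lay over histone windows and up to 3 genes lay under a single peak. In Abcam ab8580 there were 81 such peaks with up to 6 genes under one. The broadest were in the Cell Signaling Technologies 9725 H3K4me2 list, where 11 peaks with a median width of 53464 bases covered 64 histone windows and up to 19 genes lay under one. The Active Motif 39635 H3K4me1 list had 18 peaks, with up to 13 genes under one.

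The cluster near 149 Mb of chromosome 1 holds near-identical gene copies. In 8 of its 11 windows (H2BC18, H3C13, H4C14, H3C14, H2AC18, H2AC19, H3C15 and H4C15), 78.8% to 100% of the 31-base words occur elsewhere in the genome, against at most 28.3% in the other 60 windows. The 4 histone genes with no peak in any of the 17 lists, H2BC18, H3C13, H3C15 and H4C15, are all among these 8, as are H3C14 and H4C14, which had a peak in all 8 H3K4me3 lists. The part of repeated sequence in the absence of peaks was not tested. The share of genes with no peak, 5.88% of the 68 histone genes, stood beside 3.71% of all genes. Among the other 60 genes, 45 had all 8 H3K4me3 lists and the same 11 genes as above had at most 2.

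Histone genes often stand head to head, which puts their promoters into a shared stretch. Among the 68 genes there were 13 head-to-head pairs with starts 194 to 979 bases apart, with a median of 240 bases, 12 of them an H2A with an H2B gene. Of the 26 paired genes, 22 had all 8 H3K4me3 lists, and 27 of the other 42 genes did. In 11 pairs both genes had all 8. The exceptions were the testis pair H2AC1 and H2BC1, with 5 lists each, and H2AC14 and H2BC14, with 6 and 2.

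**Figure D3:**
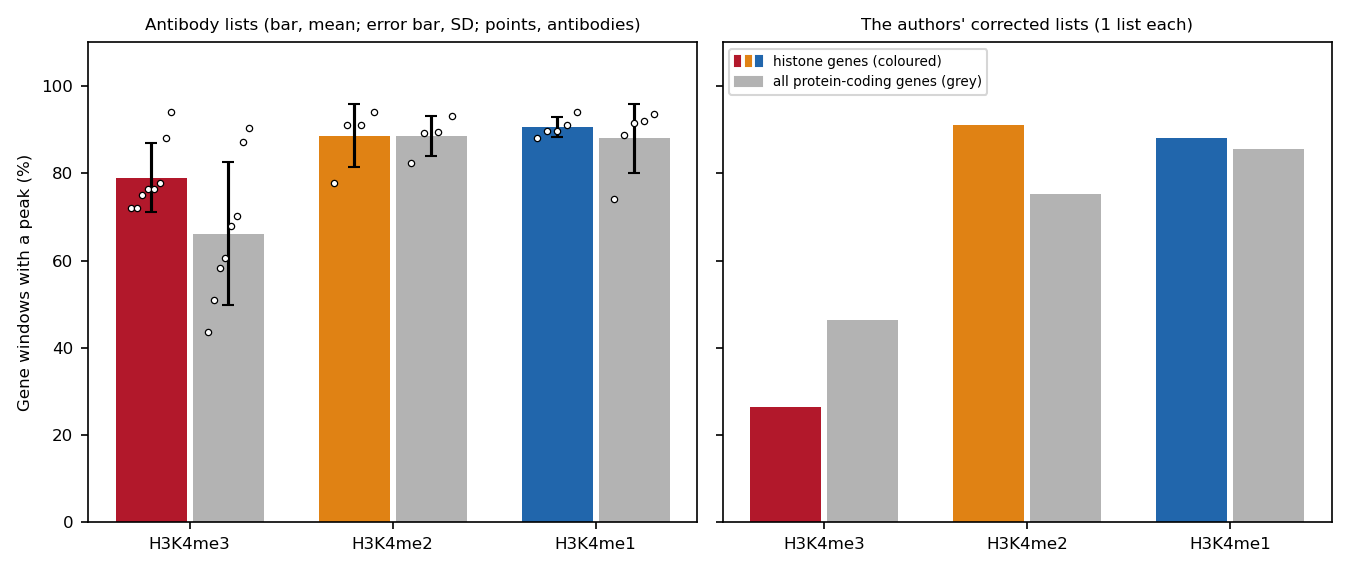
Percentage of windows with a peak in each list, by target, for the 68 histone genes beside all protein-coding genes, where each point is an antibody and bars give the mean and SD. In the H3K4me3 lists the histone shares lie between 72.1% and 94.1%, and those of all genes between 43.6% and 90.3%.

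For each gene, coverage was compared between the targets with a two-sided exact permutation test over antibodies, and p-values were adjusted by the Benjamini-Hochberg method over all genes whose values varied. The antibodies are the only replicates, so the test measures the spread between antibodies on this chromatin. With H3K4me3 minus H3K4me1 in percentage points of the window, 20 histone genes were higher in H3K4me3, 25 were lower and 19 did not pass, out of 64 tested, at an adjusted p under 0.05. The background was 0.433% of 19163 genes higher and 87% lower. The median difference was 0.00 points over the histone genes, against -55.51 points over all genes. In the start window, which does not depend on gene length, 15 histone genes were higher and 18 lower, against a background of 14.1% higher and 31% lower. The count of higher genes in the start window is thus nearer to that of genes in general, and the median difference there was 9.15 points over the histone genes, against -7.53 points over all genes.

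The 20 genes that were higher all had a peak in all 8 H3K4me3 lists, and 1 of them is longer than 1 kb. Of the 25 that were lower, 15 had fewer than 8 H3K4me3 lists, and 8 of the other 10 are longer than 1 kb. By family there were 10 higher and 4 lower among the H2A genes, 4 and 9 among H2B, 2 and 4 among H3, 3 and 5 among H4, and 1 and 3 among H1. H2BC4, H2AC6 and H2BC15 were lower over the gene window, by 64.9, 55.9 and 65.4 points, and higher in the start window, by 42.6 points (H2BC4), 38.1 points (H2AC6) and 50.8 points (H2BC15), with adjusted p = 0.0213, 0.0213 and 0.00588 by the exact permutation test. The count of 20 was sensitive to the set of antibodies: it was 12 without Abclonal A2357 or without Cell Signaling Technologies 5326 BF, and 13 without any single one of Abcam ab8580, Diagenode C15410003, EMD Millipore 05-745R, EpiGentek A-4033-050, EMD Millipore 07-473, Thermo Fisher 710795 or Thermo Fisher PA5-40086. Without both widespread lists 11 histone genes were higher and 29 lower, with 56 and 16874 of all genes, and with the libraries of 8 cycles 8 were higher and 18 lower, with 38 and 12462 of all genes. With all lists 83 of all genes were higher and 16675 lower.

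**Figure D4:**
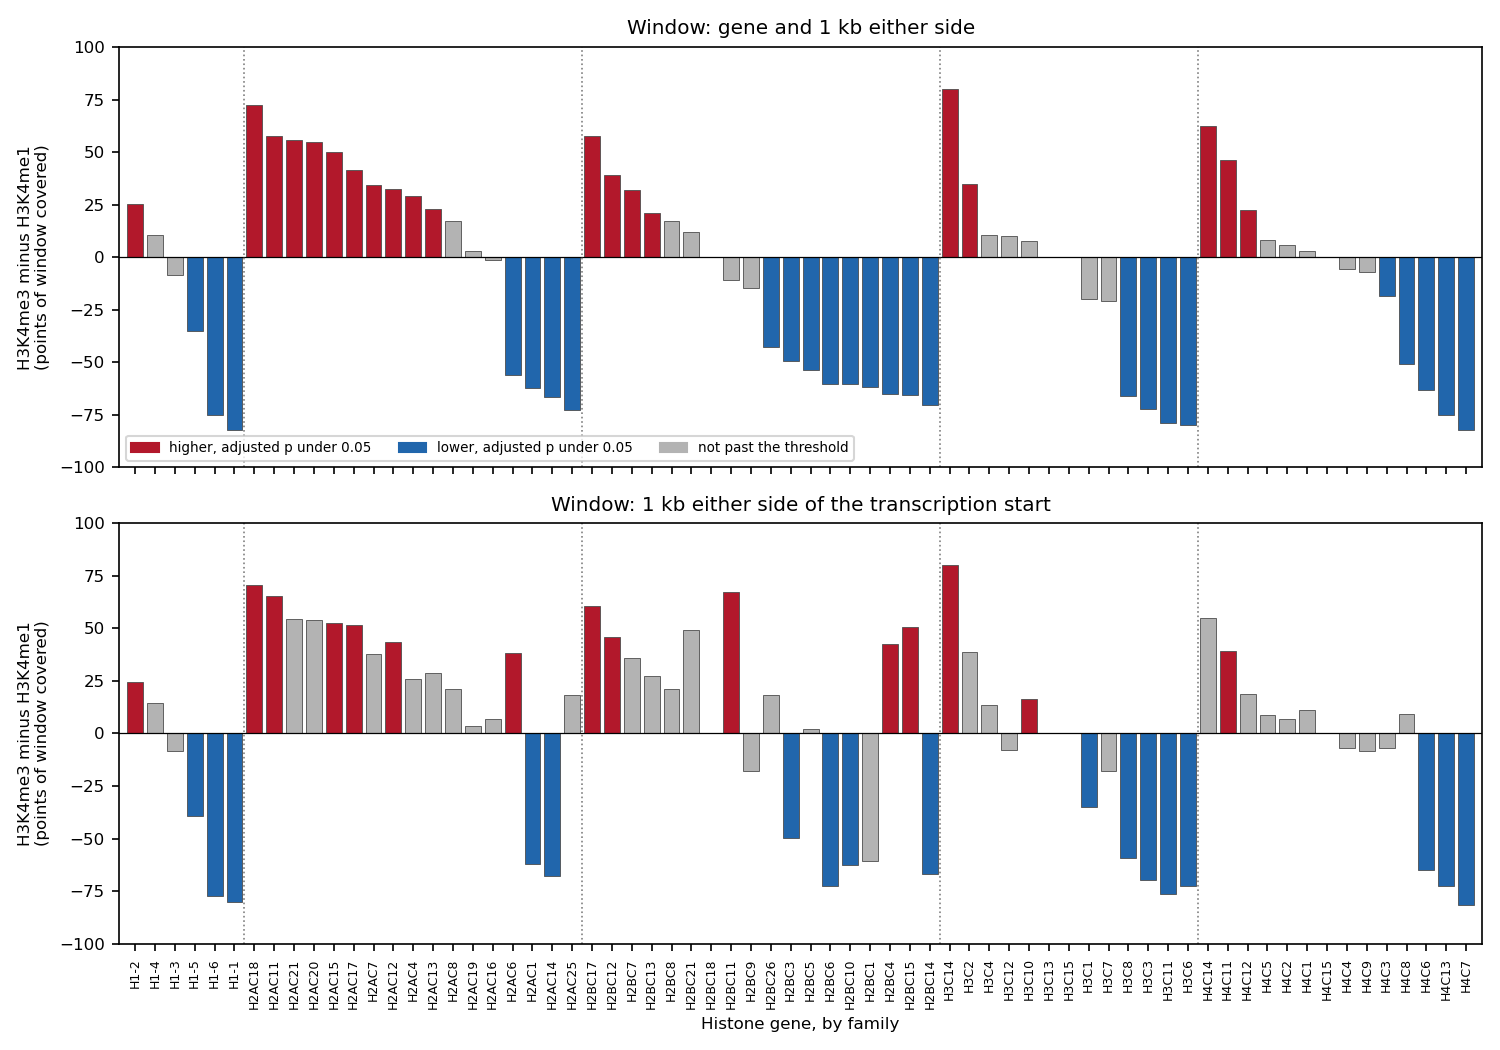
Difference in the percentage of each window under peaks, H3K4me3 minus H3K4me1, for the 68 histone genes, of which 64 were tested. Genes are grouped by family and ordered by the gene-window difference within each family. The upper panel is for the gene with 1 kb either side, the lower for 1 kb either side of the start. Colour gives the result of the exact permutation test. In the gene window the differences run between -82.4 and 80.0 points, with 20 genes higher and 25 lower at an adjusted p under 0.05.

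Among the linker histones, H1-2 and H1-4, both expressed in somatic cells, had peaks in all 17 lists. At H1-2 the H3K4me3 lists covered 90.6% of the window at the lowest, 98.6% at the median and 100% at the highest, and all 4 H3K4me2 lists covered 100%. The H3K4me1 lists covered 82.1%, 81.8%, 41.4%, 100% and 53.6% of it. The H3K4me3 values were high throughout, and the highest H3K4me1 list overlapped them. The difference at H1-2 was 25.3 points (H3K4me3 minus H3K4me1, exact permutation test, adjusted p = 0.0109), and the 10.5 points at H1-4 did not pass (adjusted p = 0.0994 by the same exact test).

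H1-1, a further somatic linker histone, was the reverse. Its H3K4me3 lists covered 0% at the lowest, 0% at the median and 100% at the highest, which was Abcam ab8580, the only H3K4me3 list with a peak there. The H3K4me2 lists covered 100%, 100%, 0% and 89.4% of the H1-1 window, and the H3K4me1 lists 100%, 100%, 100%, 100% and 73.7%. A single H3K4me3 list therefore reached the H3K4me1 values. The difference was -82.2 points (H3K4me3 minus H3K4me1, exact permutation test, adjusted p = 0.00706). The testis linker histone H1-6 was alike, with H3K4me3 lists at 0%, 0% and 100% (lowest, median, highest). The H3K4me1 lists covered 100%, 100%, 100%, 85.9% and 57.8% of the H1-6 window. Its difference was -75.3 points (exact permutation test, adjusted p = 0.00706).

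Among the core histone genes, the divergent pair H2AC17 and H2BC17 belonged to the 20 higher genes. All 8 H3K4me3 lists and all 4 H3K4me2 lists covered 100% of both windows. The H3K4me1 lists covered 25.3%, 91.0%, 17.4%, 55.5% and 23.4% of the H2BC17 window, so the groups did not overlap. The difference was 57.5 points at H2BC17 and 41.6 points at H2AC17 (H3K4me3 minus H3K4me1, exact permutation test, adjusted p = 0.00211 for each). In the start windows the differences were 60.5 and 51.7 points (exact permutation test, adjusted p = 0.00588 for each). This pair was chosen for display after its values were seen, and it does not stand for all of the 20. At H3C2 and H2AC20, also among the 20, the highest H3K4me1 list reached the 100% of the H3K4me3 lists.

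The pair H2AC14 and H2BC14, with promoter letters of the same kinds, lay at the other end. At H2AC14 the H3K4me3 lists covered 0% at the lowest, 3.82% at the median and 88.0% at the highest, which was Abcam ab8580. The H3K4me1 lists covered 90.3%, 100%, 100%, 65.6% and 60.1% of the same window. Only Abcam ab8580 reached into the H3K4me1 range. The difference was -66.7 points (H3K4me3 minus H3K4me1, exact permutation test, adjusted p = 0.0038).

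The testis variants H2AC1 and H2BC1, which replace their somatic counterparts in the male germ line, had peaks in 14 of 17 lists. At H2BC1 the H3K4me3 lists covered 0% at the lowest, 11.3% at the median and 100% at the highest. The H3K4me2 lists covered 100%, 100%, 58.1% and 90.1% of that window, and the H3K4me1 lists 100%, 100%, 100%, 100% and 68.7%. The high H3K4me3 values were those of both widespread lists, 100% and 88.5%, and they overlapped the H3K4me1 values. The difference was -62.0 points at H2BC1 (H3K4me3 minus H3K4me1, exact permutation test, adjusted p = 0.0181) and -62.2 points at H2AC1 (adjusted p = 0.00484 by the same exact test).

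H2AC18 and H2AC19, the first by position of 11 H2A genes with all 17 lists, belong to the repeated copies near 149 Mb. At H2AC18 all 8 H3K4me3 lists covered 100%, the H3K4me2 lists 14.9%, 100%, 100% and 14.3%, and the H3K4me1 lists covered 13.3%, 13.7%, 9.0%, 100% and 1.18%. The EpiGentek A-4031-050 list alone overlapped the H3K4me3 values, and the difference was 72.6 points (exact permutation test, adjusted p = 0.0093). The values that the authors deposited for the H3K4me3 peak over H2AC18 were mostly below the list medians and are given with H3C14 below. H2AC19 had low coverage throughout, with means of 16.0% in H3K4me3, 16.4% in H3K4me2 and 13.2% in H3K4me1. H2BC21 differed by 12.1 points, which did not pass (H3K4me3 minus H3K4me1, exact permutation test, adjusted p = 0.203), and H2BC26 by -42.9 points (adjusted p = 0.00289 by the same exact test). H2BC3, with 2 H3K4me3 lists, differed by -49.4 points (exact permutation test, adjusted p = 0.0498).

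Among the H3 genes the largest positive difference of all 68 was at H3C14, again a repeated copy. All 8 H3K4me3 lists covered 100% of its window. The H3K4me2 lists covered 0%, 100%, 100% and 0%, and the H3K4me1 lists 0%, 0%, 0%, 100% and 0%. H3K4me3 lists were thus at the top throughout, and a single H3K4me1 list reached them. The difference was 80.0 points (H3K4me3 minus H3K4me1, exact permutation test, adjusted p = 0.0093), and 100 points without EpiGentek A-4031-050. Only 5 of the 8 H3K4me3 lists carry the authors' value of each peak. The highest value in this window was 1.64 in Abcam ab12209 (list median 25.8) and 4.44 in Abclonal A2357 (16.7). It was 3.71 in EMD Millipore 05-745R (12.5) and 1.96 in Thermo Fisher PA5-40086 (27.3). Only in EMD Millipore 07-473 did it exceed the list median, with 10 against 7.67. H4C14 and H2AC18 held the same values in these 5 lists. With a stricter threshold on the value, the difference at H3C14 was 0.0 points.

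H3C1 and H3C2 are the first by position of 6 H3 genes with peaks in all 17 lists. H3C2 was covered 100% by all 8 H3K4me3 lists and by all 4 H3K4me2 lists, and 91.3%, 100%, 30.1%, 100% and 4.3% by the H3K4me1 lists. Its groups overlapped at 100%, and the difference was 34.9 points (exact permutation test, adjusted p = 0.0405). At H3C1 the difference was -20.1 points and did not pass (exact permutation test, adjusted p = 0.0694). H3C6 had a peak in Abcam ab8580 alone among the H3K4me3 lists, at 86.3%. The H3K4me1 lists covered 100%, 100%, 100%, 87.9% and 65.8% of it, so that list alone overlapped them, and its difference was -80.0 points (exact permutation test, adjusted p = 0.00289).

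Most H4 genes encode the same protein, and H4C7 encodes a divergent one. They split in the same way. At H4C2 the H3K4me3 lists covered 83.7% at the lowest, 100% at the median and 100% at the highest, and the H3K4me1 lists 100%, 100%, 87.1%, 100% and 71.5%. These groups overlapped, and the difference of 5.6 points at H4C2 did not pass (H3K4me3 minus H3K4me1, exact permutation test, adjusted p = 0.434). H4C1 likewise had all 17 lists and a difference of 2.7 points (exact permutation test, adjusted p = 0.763).

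H4C7 had the largest difference of any histone gene. Its H3K4me3 lists covered 0% at the lowest, 0% at the median and 89.9% at the highest, in Abcam ab8580. The H3K4me2 lists covered 100%, 100%, 0% and 80.1% of its window, and the H3K4me1 lists 100%, 100%, 100%, 100% and 68.1%. Only Abcam ab8580 overlapped the H3K4me1 values. The difference was -82.4 points (H3K4me3 minus H3K4me1, exact permutation test, adjusted p = 0.00289), and -93.6 points without Abcam ab8580. H4C6, also with 1 H3K4me3 list, differed by -63.1 points (exact permutation test, adjusted p = 0.0038).

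Without both widespread lists, the genes with few H3K4me3 lists stood further below H3K4me1. The difference, H3K4me3 minus H3K4me1, was -94.7 points at H1-1, -90.7 at H3C6, -88.7 at H1-6, -82.8 at H2BC1, -80.1 at H2AC14, -76.2 at H2AC1, -72.3 at H4C6 and -62.8 at H2BC3 (exact permutation test, adjusted p = 0.00294 for each). H2AC17 and H2BC17 kept differences of 41.6 and 57.5 points (exact permutation test, adjusted p = 0.00294 for each). Among the genes whose differences are given above, the call changed at H3C2 and H3C1. H3C2 no longer passed with 34.9 points (exact permutation test, adjusted p = 0.0661), and H3C1 then passed with -28.8 points (exact permutation test, adjusted p = 0.00586). The repeated copy H4C14, higher with all lists by 62.5 points (exact permutation test, adjusted p = 0.0314), also no longer passed. Its difference was then 56.7 points (exact permutation test, adjusted p = 0.0535).

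Against H3K4me2, coverage by H3K4me3 was lower at 15 of 50 histone genes tested and higher at 0, against a background of 71% lower and 0% higher among 19107 genes. At an unadjusted p under 0.05 by the same exact permutation test, 19 histone genes were lower and 0 higher. The largest differences were at H4C7 with -58.8 points (exact permutation test, adjusted p = 0.0484), at H2BC1 with -55.3 points (exact test, adjusted p = 0.0459) and at H3C6 with -54.5 points (exact test, adjusted p = 0.0484). All 3 lay close to the threshold. In the start window 0 of 41 histone genes passed in either direction, against a background of 0% of all genes, and 10 were lower at an unadjusted p under 0.05. The count of 15 became 30 without Abcam ab8580, where 16645 of all genes were lower, and 24 without EMD Millipore 05-1338, where 15208 were, against 13557 with all lists. It became 0 without any single one of Abcam ab7766, Cell Signaling Technologies 9725, Diagenode C15410003, Abclonal A2357, EpiGentek A-4033-050, Thermo Fisher PA5-40086, Abcam ab12209 or EMD Millipore 05-745R. In each of these settings 0 of all genes passed, in either direction.

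Between H3K4me2 and H3K4me1, 0 of 61 histone genes passed in either direction by the exact permutation test, against a background of 0% of all genes. At an unadjusted p under 0.05 there were 11, all higher in H3K4me2, against 124 higher and 370 lower among all genes. With 4 antibodies against 5 the smallest p the test can give is 0.00794. At least 3043 genes would have to reach it for an adjusted p under 0.05, and 494 genes in all had an unadjusted p under 0.05.

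In the lists that the authors corrected for off-target capture, the histone genes kept H3K4me2 and H3K4me1 peaks and mostly lacked H3K4me3 peaks. There was 1 list for each state, so no test was made. A corrected H3K4me3 peak lay in 18 of 68 gene windows (26.5%), against 46.4% of all gene windows. In the start window, which does not depend on gene length, the order was reversed, with 22.1% of histone genes against 18.1% of all genes. Histone genes are short, with a median of 502.5 bases against 27476 bases for all genes. The other counts in this paragraph are for the gene window, and the part of gene length in them was not tested. A corrected H3K4me2 peak lay in 62 windows (91.2%), against 75.3% of all windows. A corrected H3K4me1 peak lay in 60 windows (88.2%), against 85.5%. Of the 49 histone genes with a peak in all 8 antibody lists for H3K4me3, 16 had a corrected H3K4me3 peak and 47 a corrected H3K4me2 peak. Among all 7862 genes with all 8 lists, 65% had a corrected H3K4me3 peak. The combination of corrected H3K4me2 and H3K4me1 peaks without H3K4me3 was the most common, at 43 histone genes (63.2%), against 29.2% of all genes. All 3 states together were found at 17 histone genes (25%), against 44% of all genes.

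The corrected peaks over histone genes were wide and ranked high within their lists. The authors deposited a value for each peak, whose scale no header names, and it is used here only to rank peaks within a list. For each window the highest value and the widest peak were taken, so a peak shared by several genes counted for each of them. The 18 corrected H3K4me3 windows had a median value of 39.8 (range 9.23 to 43.2), against 9.62 for the whole list. Their median peak width was 3768 bases, against 271. For H3K4me2 the median value was 36 in the 62 windows, against 9.73 for the list, and the median width 13573 bases, against 417. For H3K4me1 the median value was 21.7 in the 60 windows, against 10.4 for the list, and the median width 25565 bases, against 1120. With every peak over the histone windows counted once, the median widths were smaller. They were 1246 bases for 13 H3K4me3 peaks, 3492 bases for 55 H3K4me2 peaks and 16641 bases for 35 H3K4me1 peaks.

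Some of the genes above illustrate the corrected lists. The corrected H3K4me3 list covered 94.5% of the H2AC17 window and 100% of the H2BC17 window with a single peak of 4837 bases and a value of 41.4. It covered 90.6% of the H1-2 window with a peak of 4017 bases. At H1-4, H2AC11 and H3C2, which all 8 H3K4me3 antibody lists covered, it listed none, while the corrected H3K4me2 list covered 100% of each. Of the 20 genes higher in H3K4me3 than in H3K4me1, 7 had a corrected H3K4me3 peak. Of the 19 genes with fewer than 8 H3K4me3 lists, 2 had one, H2BC3 and H4C7, and these peaks were narrow, at 289 and 365 bases.

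The lists for marks of silent chromatin covered the histone clusters broadly. An H3K27me3 peak lay in 64 windows (94.1%), against 77.9% of all windows. H3K27me3 peaks spanned the whole window at 60 of them, against 41.7% of all windows. This list covered 2029 Mb, and over all genes the median window was 99.3% covered. Histone windows are shorter than most, and the part of window length in these counts was not tested. All 49 histone genes with H3K4me3 peaks in all 8 lists had an H3K27me3 peak. The H3K9me3 list had a peak in all 68 windows (100%), against 99.2% of all windows, and it covered 2834 Mb, so its presence does not separate genes. The peaks behind these counts were few, since 8 H3K27me3 peaks and 8 H3K9me3 peaks lay over all the histone windows and up to 34 genes lay under one.

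The other protein-coding genes inside the clusters were read the same way. Some of them overlap histone genes and so share peaks with them. HFE lies within H2BC4, BOLA1 overlaps H2AC21 and FCGR1A overlaps H2BC18. What is due to location alone was not tested. Of 23 such neighbours, 16 had all 8 H3K4me3 lists (69.6%), against 39.4% of all genes. A corrected H3K4me3 peak lay at 14 of them (60.9%), against 46.4% of all genes. By H3K4me3 minus H3K4me1 over the gene window, 1 neighbour was higher and 21 were lower, against the background of 0.433% higher and 87% lower. The higher one, ENSG00000282988, has the same transcription start as H2AC7. BOLA1 and TRIM38 had peaks in all 17 lists, SLC17A4, a solute carrier gene, had 10, and FCGR1A, an Fc receptor gene near the repeated copies, had 0. BOLA1 differed by -64.8 points and TRIM38 by -77.3 points (H3K4me3 minus H3K4me1, exact permutation test, adjusted p = 0.00211 for each). In the start window 3 neighbours were higher and 12 lower, against the background of 14.1% higher and 31% lower.

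Genes that act on histone gene expression lie elsewhere in the genome and were read the same way. Of 19 such genes, among them NPAT, SLBP and the 3′ processing factors, 13 had all 8 H3K4me3 lists (68.4%), against 39.4% of all genes. A corrected H3K4me3 peak lay at 12 of them (63.2%), against 46.4% of all genes. By H3K4me3 minus H3K4me1 over the gene window, 1 was higher and 18 were lower, near the background of 87% lower and 0.433% higher. NPAT differed by -62.9 points and SLBP by -67.7 points (exact permutation test, adjusted p = 0.00211 for each), and the higher gene was CSTF2, a 3′ processing factor, with 4.9 points (exact test, adjusted p = 0.0402). In the start window, where gene length plays no part, 7 of these genes were higher and 1 lower, against a background of 14.1% higher and 31% lower. A list of 15 histone genes outside the set was taken as replication-independent. It included H4C16, left out of the set by its place on chromosome 12, and H2AX, and both carried the stem-loop. Of the 15, 5 had all 8 H3K4me3 lists (33.3%), against 39.4% of all genes. Over the gene window 1 was higher and 8 were lower, against the background of 0.433% higher and 87% lower. The higher one was H2AZ1, which encodes the variant H2A.Z, with 22.9 points (exact permutation test, adjusted p = 0.0439).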

How the data were processed

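ICeChIP-seq peak lists from K562 chromatin were read as deposited: 17 for H3K4 antibodies, 3 corrected and 1 each for H3K27me3 and H3K9me3. Of the 25 samples in the series, 4 from mouse embryonic stem cells and 2 K562 inputs were not analysed here. Per the submitters' processing notes, the build was GRCh38 (hg38) and the tools included MACS2, bedtools, SAMtools and Bowtie2. Tool versions and settings: not given in the sources used here. A list was deposited for each antibody. The authors deposited a signal value per peak in 17 lists. Its scale is not named, and it served to rank and filter peaks within a list. The other 5 lists hold positions only. The authors made the 3 corrected lists out of the libraries of Abcam ab12209, ab8580, ab7766 and ab8895, per a deposited note. The H3K27me3 library's input is not stated. Depth is unknown, so no counting interval was made.

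Groups follow the target named in the labels. Separate cultures are not stated, and the p-values reflect only how antibodies differ on this chromatin. Windows were genes with 1 kb either side, and peaks of a list were merged before coverage was counted. Targets were compared per gene with a two-sided exact permutation test of the difference in mean coverage (smallest p 0.000777 for 8 against 5 lists, 0.00202 for 8 against 4 and 0.00794 for 4 against 5), adjusted by the Benjamini-Hochberg method over all genes with varying values, with Python 3.11.15, numpy 2.4.6, pandas 2.3.3 and scipy 1.17.1. The scripts were tested on simulated data. Repeated sequence was measured as the share of 31-base words of a window found elsewhere in GRCh38.

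The genes and lists were chosen with earlier results of these data known. Named with values are, in each family, the 2 genes with the most and the 2 with the fewest lists, the testis genes H1-6, H2AC1 and H2BC1, and the 3 largest passing differences per comparison. Others are named as members of small counts or as display examples, chosen after their values were seen. The stem-loop search after the stop codon was added beside the planned search within 300 bases of the gene's annotated 3′ end, which found 48 histone genes and 1 other gene. Alternatives covered the window, the threshold on the value, the input, the amplification cycles, the adjustment and leaving out lists. Values of some marker genes are not reported here.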

Additional observations from a re-analysis of the deposited data

Results flagged for a closer look

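In 10 of 20 groups of 4 or more antibodies tested, the highest or lowest list lay far from the rest of its group by Dixon's criterion at the 95% level. The level of about 1 in 20 groups by chance holds for normally distributed values of genes not picked by those values. Coverage is bounded and often tied, and the flagged genes were among those named for the largest differences. These groups also share lists and neighbouring genes, so the count cannot be set against that rate. No explanation was tested.

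Among the H3K4me3 lists, Abcam ab8580 stood alone at H1-1 with 100% of the window covered, at H4C7 with 89.9% and at H3C6 with 86.3%, against 0% in the other 7 lists. This list held 721215 peaks and had a peak at 90.3% of all gene windows.

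Among the H3K4me2 lists, EMD Millipore 05-1338 stood apart. Its median coverage over the histone windows was 86.6%, against 100% in the other 3 lists, and it covered 0% of the H1-1 window, against a mean of 96.5% in the others. It was the H3K4me2 list with the fewest peaks (109654) and the only one amplified for 12 cycles.

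Among the H3K4me1 lists, Thermo Fisher 710795 had a median coverage of 57.1% over the histone windows, against a mean of 94.6% in the other 4 lists. It covered 68.7% of the H2BC1 window, 73.7% of the H1-1 window and 68.1% of the H4C7 window, where the other 4 covered 100%. EpiGentek A-4031-050 covered 100% of the window of the repeated copy H3C14, against 0% in the other 4.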

How the results depend on the processing

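The 45 histone genes that differed between H3K4me3 and H3K4me1 became 25 with a stricter threshold on peak values, which also left 5 of the 8 H3K4me3 lists. In that setting 60 of all genes were higher and 12609 lower. With the 8-cycle libraries only there were 26, with 38 of all genes higher and 12462 lower. When presence of a peak was tested there were 0, and 0 of all genes passed too. The count ranged over 35 to 42 when a list was left out. The 15 that differed between H3K4me3 and H3K4me2 became 37 with a 2.5 kb flank, 33 without both widespread lists (a choice made after seeing the data), and 0 in the start window, with peak presence, with the AR16 libraries only and with the 8-cycle libraries only, where 0 of all genes passed too. They ranged over 0 to 30 when a list was left out. The 0 of H3K4me2 minus H3K4me1 became 11 without adjustment and stayed at 0 when any list was left out. H4C7, H1-1 and H3C14 (H3K4me3 minus H3K4me1) and H4C7, H2BC1 and H3C6 (H3K4me3 minus H3K4me2) kept their sign in the settings run, except that H3C14 was at 0.0 points with the stricter threshold. H2BC4, H2AC6 and H2BC15 turned from lower to higher between the gene and the start window, and signs of the other genes were not compared over all settings.

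The share of histone windows with an H3K4me3 peak was 62.4% with that threshold and those 5 lists, 62.9% where at least 50% of the window had to be covered, and 76.9% to 80.0% when a list was left out. For H3K4me2 it was 80.1% with at least 50% covered and 86.8% to 92.2% without a list. For H3K4me1 it was 77.6% for the gene alone, 94.1% with a 2.5 kb flank, 76.5% with at least 50% covered, 98.7% without the 8 repeated genes (a choice made after seeing the data), and 89.7% to 91.2% without a list. In the corrected lists, 13.2% had H3K4me3 with at least 50% covered. For corrected H3K4me2 the share was 80.9% for the gene alone, 75.0% with at least 50% covered and 100% without the 8 repeated genes. For corrected H3K4me1 it was 70.6% for the gene alone, 70.6% with at least 50% covered and 96.7% without the repeated genes. Fewer lists raise the smallest p the exact test can give; other causes were not tested. No paired analysis was possible because the replicate numbers of the antibodies follow the order of the samples and pair nothing.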
